A study of Mus musculus with 6 samples.

Results

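The genes described here are the daily clock's repressors and its output factors that act through a DNA sequence called the D-box. The 10 members were fixed by name, with earlier results of these data known. They were the PAR bZIP activators Dbp, Tef and Hlf, the D-box repressor Nfil3, and the REV-ERB genes Nr1d1 and Nr1d2. The others were the Period genes Per1, Per2 and Per3, and Ciart, which encodes the repressor CHRONO. Each member matched 1 row of a table of 57180 genes, and all 10 were among the 16346 genes tested. RNA had been sequenced from dorsal root ganglia of thoracic level 8 to lumbar level 2, which house the cell bodies of sensory neurons. The I/R group held 3 wild-type mice 24 h after renal ischemia-reperfusion, in which the left renal pedicle had been clamped for 28 min and the right kidney removed under Zoletil anesthesia. The sham group held 3 wild-type mice 24 h after the same surgery without the clamp, and the sources do not say separately whether they lost the right kidney. The sources used here do not give the hour of the day at which ganglia were taken, or the strain, sex and age of the mice.

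The clock is a loop of transcription factors that runs in most cells of the body. BMAL1 and CLOCK bind E-boxes and switch on the Period, Cryptochrome, REV-ERB and PAR bZIP genes. The Period and Cryptochrome proteins then repress BMAL1 and CLOCK, the REV-ERBs repress Bmal1 and Nfil3 through ROR elements, and the PAR bZIP factors and NFIL3 compete for D-boxes in promoters such as that of Per3. Per1 is also switched on by glucocorticoid hormones and by cAMP signaling, so it follows stress and neuronal activity as well as the hour.

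The promoters of Per3, Per1 and Nfil3 are shown because they hold matches to the D-box and the ROR element, the motifs of factors described here. Of the 10 members, 9 had a promoter in the RefSeq table of build GRCm38.p6, which gives 250 bases before and 50 after a gene's start, and there were 11 such promoters because Per1 and Tef have a pair each. Capitals mark matches to any of 6 motifs searched on both strands: the D-box TTATGTAA and its variant TTATGCAA, the E-box CACGTG and its variant CACGTT, the ROR element core TAGGTCA, and the cAMP response element TGACGTCA. The first sequence is Per3 on the minus strand of chr4:151044616-151044915. The second is the upstream promoter of Per1 on the plus strand of chr11:69098699-69098998. The third is Nfil3 on the minus strand of chr13:52980990-52981289.
Per3: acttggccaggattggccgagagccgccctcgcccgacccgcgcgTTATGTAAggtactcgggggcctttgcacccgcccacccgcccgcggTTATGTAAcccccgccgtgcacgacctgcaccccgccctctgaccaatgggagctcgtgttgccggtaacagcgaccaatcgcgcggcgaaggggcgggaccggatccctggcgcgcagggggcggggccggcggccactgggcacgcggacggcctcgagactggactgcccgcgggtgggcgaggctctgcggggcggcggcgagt
Per1: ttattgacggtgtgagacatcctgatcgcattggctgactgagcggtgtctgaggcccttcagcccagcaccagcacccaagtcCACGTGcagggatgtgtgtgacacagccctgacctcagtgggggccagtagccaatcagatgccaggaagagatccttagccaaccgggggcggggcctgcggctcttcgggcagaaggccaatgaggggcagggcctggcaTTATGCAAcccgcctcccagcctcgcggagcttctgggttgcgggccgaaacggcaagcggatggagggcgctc
Nfil3: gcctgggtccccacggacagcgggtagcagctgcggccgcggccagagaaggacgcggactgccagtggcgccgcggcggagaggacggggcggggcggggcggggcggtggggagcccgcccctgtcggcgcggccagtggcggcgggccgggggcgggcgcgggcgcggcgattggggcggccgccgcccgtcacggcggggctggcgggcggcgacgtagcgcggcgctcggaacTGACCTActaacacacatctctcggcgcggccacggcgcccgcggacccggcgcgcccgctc

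The Per3 promoter held the D-box TTATGTAA at 2 places, 205 and 158 bases before the start, and this sequence was found in 0.938% of all 32851 promoters. The Per1 promoter held the variant TTATGCAA 24 bases before the start, found in 0.743% of promoters, and an E-box at 166 bases, a motif found in 7.15%. The Nfil3 promoter held the ROR element core on the other strand 12 bases before the start, a match found in 2.61%. Ciart held 3 E-boxes, both Tef promoters held 1 each, Nr1d1 held the variant CACGTT (4.68% of promoters), and Hlf held the cAMP response element (1.79%). The windows of Dbp and Nr1d2 and the downstream window of Per1 held none of these letters. A match describes the sequence and does not show that a factor was bound.

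Library totals ran from 20234079 to 22010227 expected counts in I/R and from 19092650 to 20390927 in sham. Levels are CPM, the count scaled to library size after TMM normalization. A level of 0.137 to 0.154 CPM corresponded to 3 counts in a library, and this covers counting error only. Sensory neuron markers were abundant in every library: the 8 genes of that list summed to 8505 to 9280 CPM in I/R and to 8024 to 9138 CPM in sham. Transcripts of skeletal muscle, a tissue beside the ganglia, set the sham libraries apart from each other. Summed over 10 genes they stood at 6.67, 12.3 and 9.49 CPM in I/R 1 to 3, against 473, 16.2 and 246 CPM in sham 1 to 3. Of these 10 genes 1 was called in edgeR's test, 10 in DESeq2 and 0 in limma-voom, all lower in I/R. Of 5 Schwann cell, 5 endothelial and 5 macrophage markers none was called in edgeR's test, DESeq2 or limma-voom, and 2, 1 and 2 of them had an unadjusted p under 0.05. A gene was called when its adjusted p in edgeR's quasi-likelihood test was under 0.05.

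In I/R ganglia Dbp fell to about 0.510 of its sham level and Nfil3 rose 1.61-fold, while the other 8 members did not pass the test. Both calls count among the 188 of 16346 tested genes (1.15%) that were called. An unadjusted p under 0.05 was reached by 6 of the 10 members, 4 lower and 2 higher in I/R, against 10.5% of all tested genes. For 5 of the 10 members the 3 I/R values lay all below or all above the 3 sham values, against 17.1% of all tested genes. Because the members were chosen with earlier results of these data known, these shares are not an independent test. The median log2 fold change of the 10 members was -0.31, with 8 below 0 and 2 above, while the median of all tested genes was 0.00013. In bulk tissue, fewer cells of a type and less RNA per cell cannot be told apart.

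**Figure D1:**
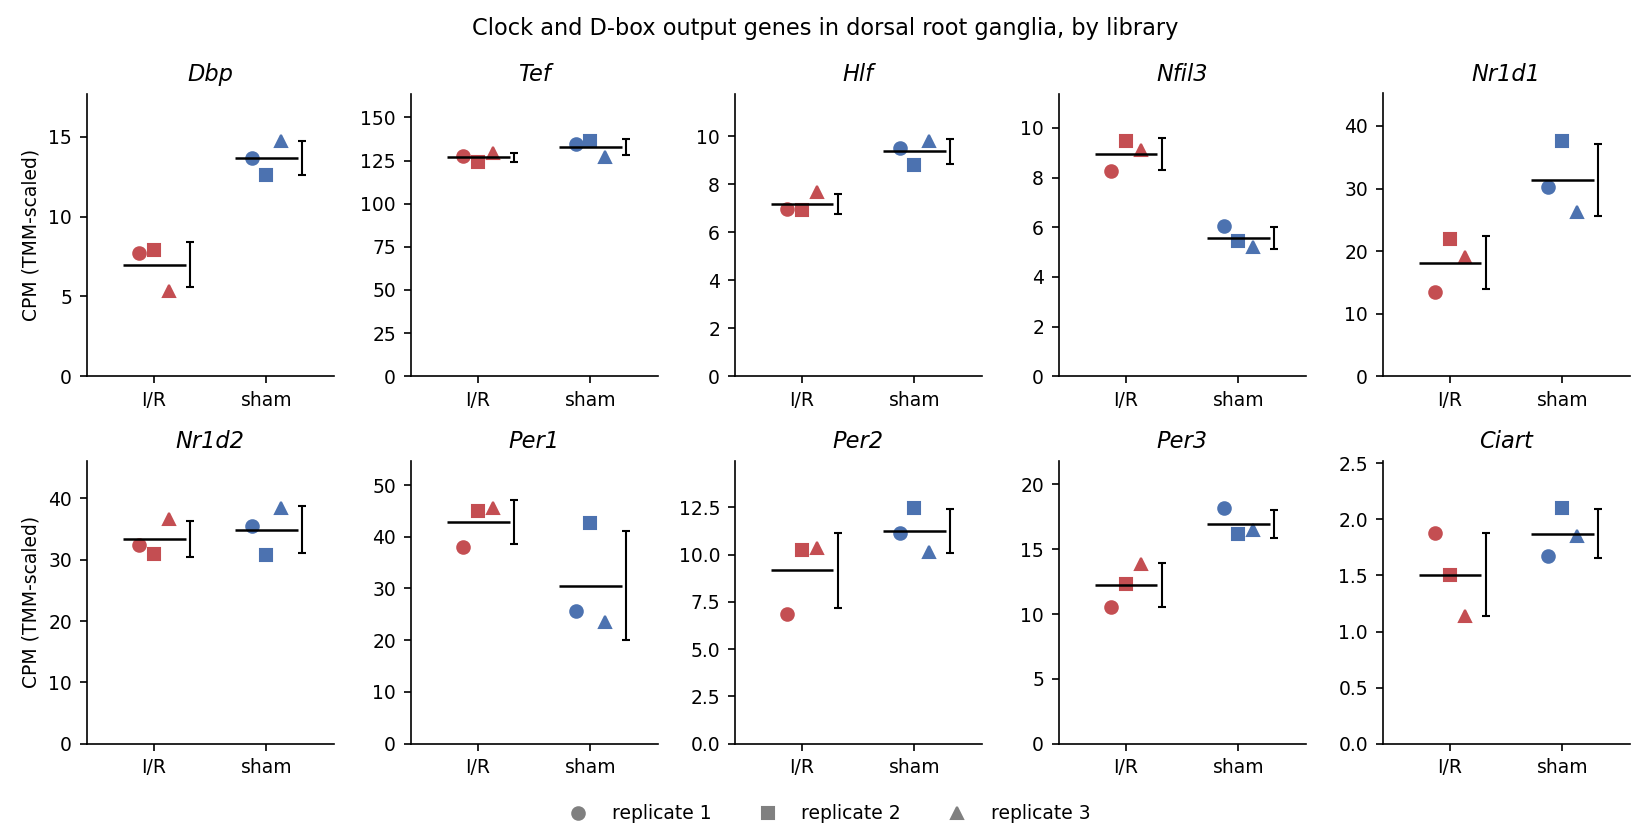
Level of each member in CPM (vertical axes, starting at 0) in the 3 I/R and the 3 sham libraries; each point is 1 mouse, the horizontal line is the group mean and the bar beside it is 1 SD either way. Dbp, Hlf, Nr1d1 and Per3 lie lower in every I/R library than in any sham library and Nfil3 higher, while Per1 of sham 2, at 42.6 CPM, lies among the I/R values.

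Dbp, Tef and Hlf encode activators that bind the D-box and swing over the day in many organs. Dbp, known for a wide daily swing in liver, had 7.71, 7.89 and 5.34 CPM in I/R 1 to 3, against 13.7, 12.6 and 14.8 CPM in sham 1 to 3. Every I/R value lay below every sham value, and I/R 3 was the lowest. The mean was 6.98 ± 1.42 CPM in I/R and 13.7 ± 1.08 CPM in sham (SD, n = 3 each), a log2 fold change of -0.97 ± 0.16 (SE), with an adjusted p of 0.0193 in edgeR's test. The call depended on 3 libraries: the adjusted p was 0.0656 without I/R 2, 0.109 without sham 1 and 0.0733 without sham 3. The log2 fold change lay between -1.09 and -0.81 whichever library was left out.

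Dbp was also lower in I/R when the muscle-poor sham library was taken alone. Against sham 2 alone the log2 fold change of Dbp was -0.88 (adjusted p = 0.437, in a fit that assumes that the lone sham library varies like the others), and with the muscle level as a covariate it was -0.85 (adjusted p = 0.670). Markers of fibroblasts and meninges moved with Dbp: 5 of 6 fell, against 1.15% of all tested genes called in either direction in edgeR's test. The 6 markers summed to 272, 299 and 264 CPM in I/R 1 to 3, against 519, 616 and 604 CPM in sham 1 to 3. All 5 red cell genes fell too, with sums of 86.6, 63.5 and 52.8 CPM in I/R and 181, 195 and 271 CPM in sham. Their part in the values of Dbp and the other members was not tested.

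Tef was the most abundant member per length in both groups and did not pass the test. It had 128, 124 and 129 CPM in I/R, against 135, 137 and 127 CPM in sham, and the groups overlapped (log2 fold change -0.07 ± 0.08 SE, adjusted p = 0.838). Hlf had 6.97, 6.92 and 7.67 CPM in I/R, against 9.53, 8.80 and 9.82 CPM in sham. Its groups did not overlap, and its log2 fold change of -0.38 ± 0.13 did not pass (unadjusted p = 0.0128, adjusted p = 0.272 in edgeR's test). The share of Dbp among PAR bZIP transcripts was lower in each I/R library than in any sham library, which was not tested. Per kb of gene length, Dbp made up 11.4%, 12% and 8.09% of the sum of Dbp, Tef and Hlf in I/R 1 to 3, against 17.7%, 16.4% and 19.6% in sham 1 to 3.

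Nfil3, also called E4BP4, encodes the repressor that occupies the same D-boxes, and it moved the opposite way to Dbp. It had 8.25, 9.49 and 9.13 CPM in I/R, against 6.04, 5.45 and 5.19 CPM in sham, so that the lowest I/R value lay above the highest sham value. The mean was 8.96 ± 0.636 CPM in I/R and 5.56 ± 0.434 CPM in sham (SD, n = 3 each), a log2 fold change of 0.69 ± 0.14 (SE, adjusted p = 0.0475 in edgeR's test). This call was close to the threshold: it was lost without any 1 of the 6 libraries, with adjusted p from 0.0621 (without I/R 1) to 0.240 (without I/R 2), while the log2 fold change stayed between 0.62 and 0.75. The value against sham 2 alone was also 0.69 (adjusted p = 0.490). In limma-voom the adjusted p was 0.0561.

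The transcripts of Dbp and Nfil3 can be set against each other within each library, free of library size, although transcript levels do not show how much of either protein is at a D-box. Per kb, the log2 ratio of Dbp to Nfil3 was 0.04, -0.12 and -0.63 in I/R 1 to 3, against 1.32, 1.35 and 1.65 in sham 1 to 3. Dbp transcripts were thus about as abundant as those of Nfil3, or fewer, in I/R, and more abundant in each sham library. The mean differed by -1.68. With Tef and Hlf added to Dbp, the log2 ratio to Nfil3 was 3.17, 2.94 and 3.00 in I/R and 3.82, 3.96 and 4.0 in sham, a difference of -0.89. The ratios restate the levels above and were not tested.

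**Figure D2:**
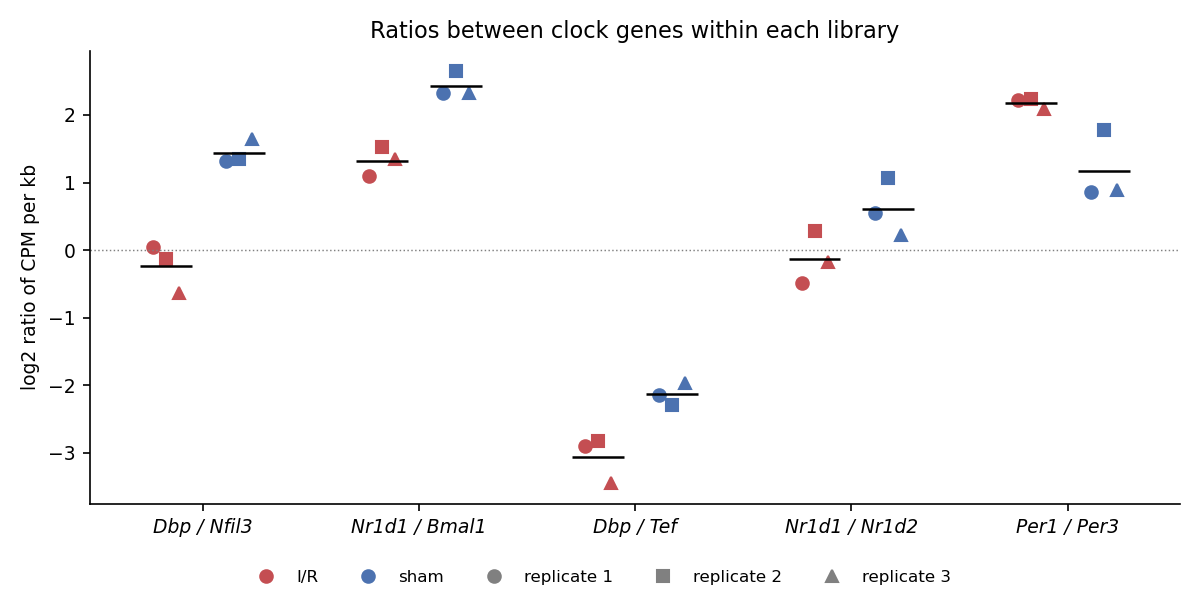
Log2 ratio of CPM per kb between pairs of clock genes (vertical axis) within each library; red points are the 3 I/R and blue points the 3 sham libraries, and lines are group means. Dbp over Nfil3 averages -0.24 in I/R and 1.44 in sham, and Nr1d1 over Nr1d2 is the pair whose groups overlap.

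Nr1d1 and Nr1d2 encode REV-ERB alpha and beta, heme-binding nuclear receptors that repress Bmal1 and Nfil3. Nr1d1 had 13.5, 21.9 and 19.0 CPM in I/R, against 30.2, 37.7 and 26.2 CPM in sham. Every I/R value lay below every sham value, and the coefficient of variation was 23.5% in I/R and 18.6% in sham. The log2 fold change of -0.79 ± 0.19 did not pass edgeR's test (adjusted p = 0.0991), while DESeq2 called it (adjusted p = 0.0022), as did edgeR with no filter on low counts (0.000465). Against sham 2 alone the value was -1.08, and sham 2 had the highest level of the 3 sham libraries. Nr1d2 had 32.4, 30.9 and 36.6 CPM in I/R, against 35.5, 30.8 and 38.4 CPM in sham, and the groups overlapped (-0.06 ± 0.12, adjusted p = 0.885). The log2 ratio of Nr1d1 to Nr1d2 per kb was -0.49, 0.28 and -0.17 in I/R and 0.55, 1.07 and 0.22 in sham.

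Dbp and Nr1d1 each overlap a neighbouring gene, and both had expected counts that were not whole numbers in 6 of 6 libraries, while the other 8 members had whole numbers in all. In the RefSeq annotation of GRCm38.p6, Nr1d1 overlaps Thra, the thyroid hormone receptor alpha gene, and Dbp overlaps Sphk2, a sphingosine kinase gene. Per2, Per3 and Ciart overlap Gm35591, Uts2 and C920021L13Rik. The kit was stranded, but no source used here names the counting program or its strand setting, so reads of an overlap cannot be assigned to one gene with certainty. Thra stood at 358 ± 15.6 CPM in I/R and 366 ± 45.2 CPM in sham (log2 fold change -0.03 ± 0.11, adjusted p = 0.945). Sphk2 stood at 62.6 ± 4.31 CPM in I/R and 74.8 ± 11 CPM in sham (-0.26 ± 0.12, adjusted p = 0.512). Neither Thra nor Sphk2 was called.

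The Period genes, whose proteins hold back BMAL1 and CLOCK, had values on both sides of 0. Per3, whose promoter carries the D-box pair shown above, had 10.5, 12.3 and 13.9 CPM in I/R, against 18.2, 16.2 and 16.5 CPM in sham. The groups did not overlap, and the log2 fold change of -0.47 ± 0.13 did not pass (unadjusted p = 0.0051, adjusted p = 0.177 in edgeR's test). Per2 had 6.87, 10.3 and 10.4 CPM in I/R, against 11.1, 12.5 and 10.1 CPM in sham. I/R 1 alone lay well below the sham range (-0.29 ± 0.17, adjusted p = 0.614).

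Per1 was the one Period gene with a value above 0. It had 38.0, 44.9 and 45.5 CPM in I/R, against 25.6, 42.6 and 23.5 CPM in sham. Sham 2 thus stood with the I/R mice, and sham 1 and sham 3 stood below all of them. The log2 fold change was 0.49 ± 0.20 (adjusted p = 0.430) with all libraries and 0.80 without sham 2, where edgeR called the gene (adjusted p = 0.0161). Against sham 2 alone it was -0.02, and with the muscle level as a covariate it was -0.05. Per1 over Per3, as a log2 ratio per kb, was 2.22, 2.24 and 2.09 in I/R, against 0.87, 1.77 and 0.89 in sham. Sham 1 and sham 3 were also the libraries with 473 and 246 CPM of muscle transcripts. Spinal cord oligodendrocyte markers summed to 21.9 and 13.8 CPM in sham 1 and sham 3, and to 3.87 CPM or less elsewhere. With 1 sham library low in both, muscle content, spinal cord content and differences between mice cannot be told apart.

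Ciart encodes CHRONO, a repressor of BMAL1 and CLOCK, and was the least abundant member. It had 38, 31 and 25 expected counts in I/R, against 34, 42 and 36 in sham, or 1.88, 1.5 and 1.14 CPM against 1.67, 2.10 and 1.85 CPM. The groups overlapped, and the log2 fold change of -0.32 ± 0.25 (adjusted p = 0.722) could not be told from 0 at this depth.

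Among the sham libraries, sham 2 had the highest Nr1d1, Per1, Per2, Tef and Ciart and the lowest Dbp, Hlf, Nr1d2 and Per3. Among the I/R libraries, I/R 1 had the lowest Nr1d1, Per1, Per2, Per3 and Nfil3, and I/R 3 the lowest Dbp and Ciart.

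**Figure D3:**
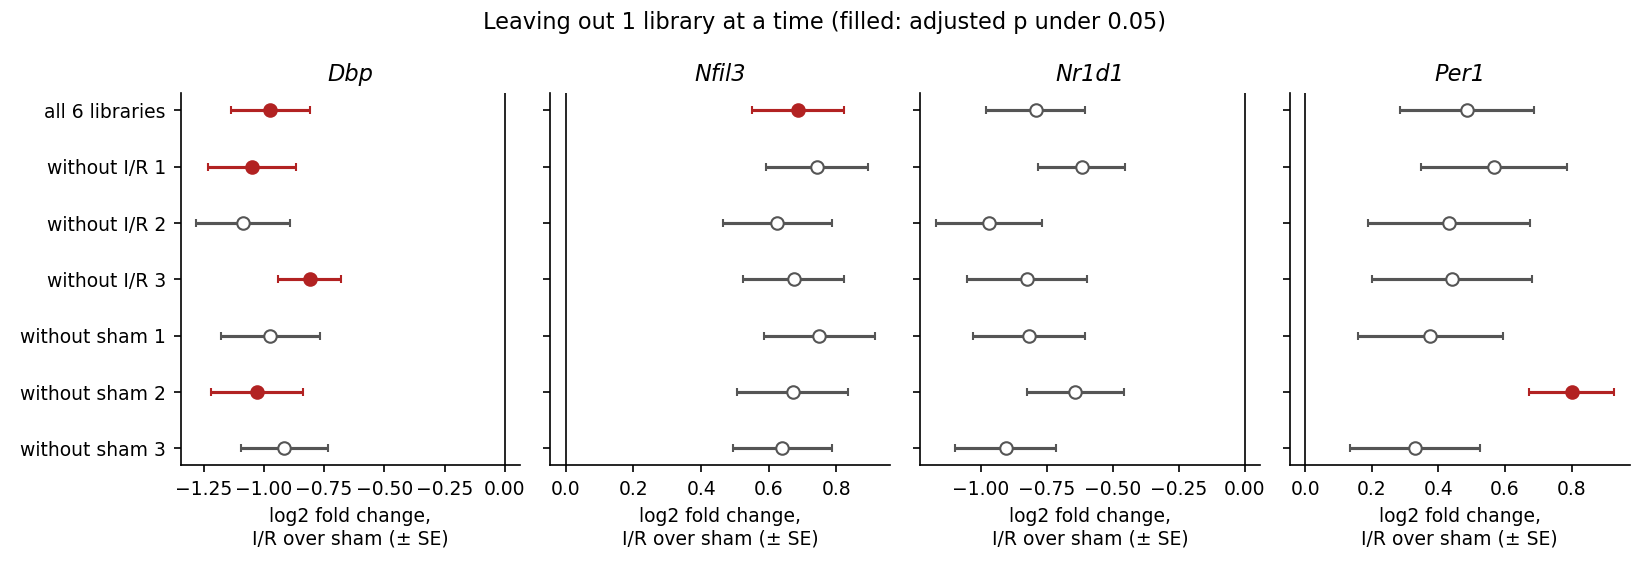
Log2 fold change, I/R over sham, of Dbp, Nfil3, Nr1d1 and Per1 (horizontal axes, bars are 1 SE either way) with all 6 libraries and with each left out in turn; filled red points have an adjusted p under 0.05. Dbp stays between -1.09 and -0.81 and is called in some fits, Nfil3 is called with all 6 libraries and in none of the fits that leave 1 out, and Per1 moves to 0.80 without sham 2.

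Per kb of gene length the order of levels differed between the groups. In I/R it ran from Tef, at 31.1 ± 0.662 CPM per kb, over Per1 at 9.24 ± 0.903, Nr1d2 at 7.15 ± 0.634, Nr1d1 at 6.66 ± 1.57, Nfil3 at 4.42 ± 0.314 and Dbp at 3.8 ± 0.776 to Per3 at 2.04 ± 0.279, Per2 at 1.57 ± 0.341, Hlf at 1.27 ± 0.0737 and Ciart at 0.777 ± 0.190. In sham it ran from Tef at 32.6 ± 1.19 CPM per kb over Nr1d1 at 11.5 ± 2.14, Nr1d2 at 7.48 ± 0.827, Dbp at 7.45 ± 0.586 and Per1 at 6.59 ± 2.26 to Per3 at 2.82 ± 0.181, Nfil3 at 2.75 ± 0.214, Per2 at 1.93 ± 0.200, Hlf at 1.66 ± 0.0929 and Ciart at 0.966 ± 0.112. Values are mean ± SD of 3 mice. The ranges of neighbours overlapped for Nr1d2 and Nr1d1, Nfil3 and Dbp, Per3 and Per2, and Per2 and Hlf in I/R. In sham they overlapped for Nr1d2 and Dbp, Dbp and Per1, Per3 and Nfil3, and Per2 and Hlf.

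The activating arm and the remaining parts of the clock held no called gene. Of 18 wider clock genes, 17 were tested and 0 were called in edgeR's test, in DESeq2 and in limma-voom. This is near the share over all tested genes, of which edgeR's test called 1.15%. In edgeR's test 4 had an unadjusted p under 0.05, all higher in I/R, against 10.5% of all tested genes in either direction. For 6 of the 17 the 3 I/R values lay all above the 3 sham values, and for 0 all below, against 17.1% of all tested genes in either direction. The median log2 fold change of the 17 was 0.16. These genes were also chosen with earlier results of these data known. Rorb, a nuclear receptor gene, was not tested for lack of counts. Bmal1, the partner of CLOCK and the gene that REV-ERBs repress, had 5.73, 6.88 and 6.75 CPM in I/R, against 5.45, 5.45 and 4.73 CPM in sham. The groups did not overlap, and the log2 fold change was 0.31 ± 0.15 (adjusted p = 0.520). Clock, Npas2 and Bmal2 had values of 0.10, 0.07 and -0.03. The log2 ratio of Nr1d1 to Bmal1 per kb was 1.09, 1.53 and 1.35 in I/R, against 2.33, 2.65 and 2.32 in sham.

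The Cryptochromes and Rora had values above 0, as Bmal1 did. Cry2, which encodes a partner of the Period proteins and was the more abundant Cryptochrome per kb, had 136, 152 and 144 CPM in I/R, against 127, 132 and 108 CPM in sham (0.23 ± 0.10 on the log2 scale, with an adjusted p of 0.476 in edgeR's test). Cry1 had a value of 0.25 (adjusted p = 0.532). Rora, which encodes the activator at ROR elements, had 13.7, 12.5 and 13 CPM in I/R, against 9.53, 9.0 and 11 CPM in sham (0.41 ± 0.12, adjusted p = 0.212). The E-box repressors Bhlhe40 and Bhlhe41, also called DEC1 and DEC2, had values of -0.11 and 0.16. Among kinases and ubiquitin ligase subunits that set the lifetime of Period and Cryptochrome proteins, Csnk1e had a value of 0.31 (adjusted p = 0.381). Gsk3b, Fbxw11, Fbxl21 and Csnk1d lay between 0.08 and 0.18.

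**Figure D4:**
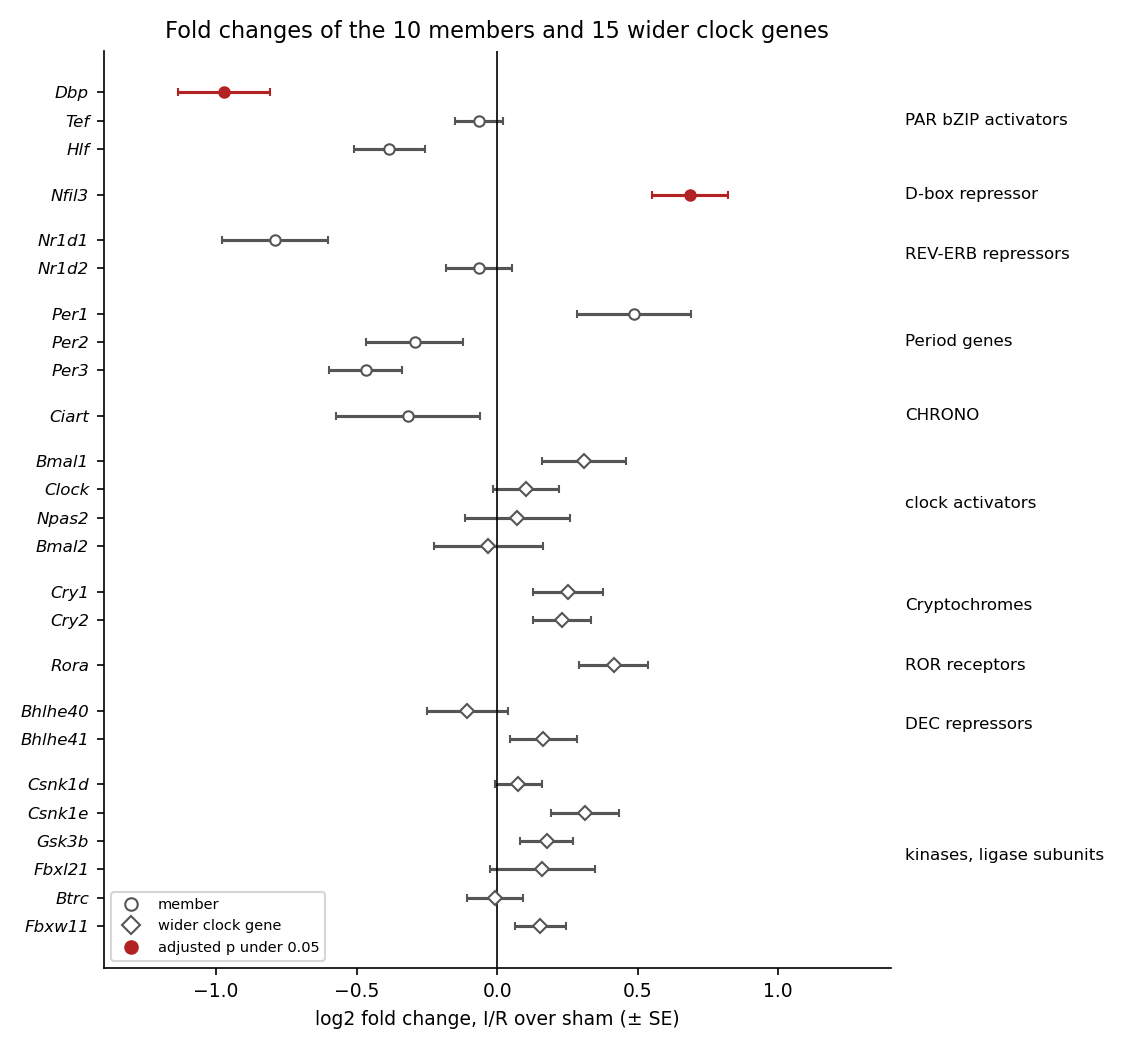
Log2 fold change, I/R over sham, of the 10 members (circles) and 15 of the 17 tested wider clock genes (diamonds), with bars of 1 SE either way and grouped by role; filled red points have an adjusted p under 0.05. Dbp at -0.97 and Nfil3 at 0.69 are the called genes, and no wider clock gene is called.

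Widely rhythmic output genes and targets of PAR bZIP factors held no gene called in edgeR's test, which called 1.15% of all tested genes. Of 7 output genes that are rhythmic in many organs none was called in edgeR's test or limma-voom, with the highest value of 0.46 for Klf9, a zinc finger factor that also answers to glucocorticoids (adjusted p = 0.0708, and 0.0126 in DESeq2, which called it). In edgeR's test Klf9 was the 1 gene of this list with an unadjusted p under 0.05. Klf10, Tsc22d3 and Wee1 had values of 0.18, 0.14 and -0.11. Of 3 genes that PAR bZIP factors drive in liver or brain none was called by edgeR or limma-voom, and an unadjusted p under 0.05 was reached by 1. This was Pdxk, which makes the active form of vitamin B6 and had 45.7, 48.2 and 45.1 CPM in I/R, against 63.5, 66.7 and 56.6 CPM in sham. Its groups did not overlap (-0.43 ± 0.10, adjusted p = 0.0862), and it was called without sham 3 (adjusted p = 0.0494) and by DESeq2 (0.0241). Por and Alas1 had values of -0.24 and 0.05.

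Of 8 genes that REV-ERBs are known to repress in other tissues, 3 rose, 1 fell and 4 did not pass edgeR's test. That test called 1.15% of all tested genes, and the list was chosen with earlier results of these data known. Nfil3 was one of those that rose, so the list is not independent of the members. Cdkn1a, the gene of the cell cycle inhibitor p21, had 156, 142 and 130 CPM in I/R, against 90.1, 93.4 and 90.5 CPM in sham (0.64 ± 0.10 on the log2 scale, with an adjusted p of 0.0107 in edgeR's test), and lost its call without I/R 2 or sham 1 (adjusted p = 0.0909 and 0.0939). Fabp7, a fatty acid binding protein gene of satellite glia, fell: it had 81.0, 85.2 and 66.3 CPM in I/R, against 141, 126 and 195 CPM in sham (-0.99 ± 0.16). Its call was lost without I/R 2, I/R 3 or sham 1 (adjusted p 0.0680 to 0.127). The other 4, Bmal1, Cry1, Clock and Npas2, had values of 0.31, 0.25, 0.10 and 0.07. Of 5 satellite glia markers Fabp7 was the 1 called gene, with 4 values below 0 and 1 above. The marker above 0 was Glul, with 567, 515 and 501 CPM in I/R, against 413, 427 and 426 CPM in sham. Its groups did not overlap, and its value of 0.32 did not pass.

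Per1 also answers to inputs from outside the clock, and genes known to follow the same inputs are listed here. Whether any of these inputs acted on Per1 was not tested. Of 7 cAMP and immediate early genes 0 passed in edgeR's test, DESeq2 and limma-voom, and an unadjusted p under 0.05 was reached by 0. In edgeR the log2 fold changes had values of 0.20 for Crem, 0.19 for Junb, 0.16 for Fos and -0.12 for Egr1. Of 13 glucocorticoid targets 2 rose, Dusp1 (0.77 ± 0.12 on the log2 scale, with an adjusted p of 0.0111 in edgeR's test) and Cdkn1a, and none fell, with a median of 0.46. Over all tested genes edgeR's test called 1.15%. DESeq2 called 3 of the 13, these 2 and Klf9, and limma-voom called these 2. Of these 13, 9 had an unadjusted p under 0.05, all higher in I/R, against 10.5% of all tested genes in either direction. This list too was chosen with earlier results of these data known. Dusp1, a phosphatase of MAP kinases, had 24.3, 21.2 and 21.6 CPM in I/R, against 13.3, 14.1 and 12 CPM in sham, and lost its call without I/R 2 or sham 1 (adjusted p = 0.0634 and 0.0719). Zbtb16, a steroid-induced zinc finger gene, Cebpd and Sgk1 had values of 0.69, 0.69 and 0.39 (adjusted p = 0.0988, 0.405 and 0.293). Against sham 2 alone Zbtb16, Cebpd and Sgk1 stood at 0.49, 0.71 and 0.15, and Dusp1 at 0.65. Cebpd had 12.1, 7.94 and 4.97 CPM in I/R 1 to 3, and its value was 0.32 without I/R 1.

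The 5 genes whose levels over the 6 libraries were most like those of Dbp included no gene of the clock lists other than Fabp7 of the REV-ERB list. Likeness was the root mean square difference of mean-centred log2 CPM, over 9735 named genes of at least 10 CPM. The nearest were Igfbp6, at 0.12 log2 units, Fabp7 at 0.15, H2-Ab1 at 0.15, Serpinh1 at 0.16 and H2-Eb1 at 0.17. Igfbp6 encodes a binding protein of insulin-like growth factors and had 20.3, 19.8 and 13.2 CPM in I/R, against 33.1, 39.1 and 40.9 CPM in sham. H2-Ab1 and H2-Eb1 are class II antigen presentation genes, and Serpinh1 encodes a collagen chaperone. The genes nearest to Nfil3 were Lancl3 at 0.07, Stom at 0.08, Chst2 at 0.08, Igfbp3 at 0.09 and Mapk6 at 0.09.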

How the data were processed

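Stranded mRNA libraries were made from total RNA of dorsal root ganglia of 3 I/R and 3 sham mice, 1 library per mouse, per the labels' protocols. Per the submitters' processing notes, the tools were fastp, HISAT2 and StringTie and the mouse build was GRCm39; roles and versions were not listed with them. The authors deposited 1 table of expected counts per gene and library, not scaled to library size, with gene lengths. Between 10.7% and 11.5% of values in a library were not whole, so counts were rounded. The design had assumed whole counts, and its test was kept.

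Genes were tested with edgeR 4.0.16 in R 4.3.3 (TMM, the package's filter on low counts, quasi-likelihood test, Benjamini-Hochberg adjustment over 16346 genes, threshold 0.05). The SE is the log2 fold change over the root of the F statistic. CPM per kb used the deposited gene length. Log2 CPM had a prior count of 2. The test was checked on simulated counts with known changes: the share of false calls was above the threshold, and most of the smallest changes were missed, so calls near the threshold are uncertain and a gene that did not pass may still differ. Libraries of 1 group differed by more than sampling noise (ratio of chi-square to degrees of freedom from 4.11 to 30.5), so all 6 were kept as replicates. Pairs across the groups had ratios from 7.88 to 36.6, so by this measure some were closer than pairs within a group.

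The members, gene lists and alternatives were chosen with earlier results of these data known. All members were named, then genes of each list that were called (for wider clock genes also those with an unadjusted p under 0.05) and up to 4 others in order of p, and the 5 genes nearest to Dbp and to Nfil3. Some genes that this rule names are not reported here. Alternatives were DESeq2 1.42.0, limma-voom (limma 3.58.1), normalization by RLE or the upper quartile, other filters on low counts, a robust fit, the replicate number as a block, the muscle level as a covariate, sham 2 alone, and leaving out each library.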

Additional observations from a re-analysis of the deposited data

How the results depend on the processing

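Of the 16 alternative settings, each run on 44 named genes, 637 of 704 fits kept the direction and the side of the threshold, 37 lost a call, 10 gained one and 20 changed sign, in 9 genes. Calls over all genes numbered 188, and 312 in DESeq2, 494 with no filter on low counts, 28 with the muscle level as a covariate, 32 against sham 2 alone and 87 to 181 without 1 library. Of the 10 members 2 were called, against 3 in DESeq2 and with no filter, 1 in limma-voom, 1 with a CPM of at least 1 in 3 libraries, 0 with the muscle covariate, 0 against sham 2 alone, and 0 to 2 without 1 library. The covariate and the sham 2 fit leave fewer degrees of freedom.

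The replicate block gave 63 calls over all genes and 0 among the members, with adjusted p = 0.160 for Dbp and 0.204 for Nfil3 in edgeR's test. Deviations of same-numbered mice had correlations of -0.11, 0.14 and -0.12. The highest correlation of I/R 1 to 3 with a sham mouse of another number was 0.28, 0.093 and 0.10. The labels name no batch, and correlations from 3 mice per group cannot decide whether same-numbered mice were handled together.

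With the muscle covariate the log2 fold change changed sign to 0.13 for Nr1d2, -0.052 for Per1, -0.15 for Npas2 and -0.27 for Fos. Against sham 2 alone it changed sign to 0.092 for Nr1d2, -0.017 for Per1, -0.17 for Npas2, 0.0026 for Bmal2, -0.014 for Alas1 and -0.23 for Fos. Without 1 library the values ran from -0.15 to 0.0098 for Nr1d2, from -0.076 to 0.19 for Npas2, from -0.16 to 0.083 for Bmal2, from -0.22 to 0.0099 for Bhlhe40, from -0.015 to 0.099 for Alas1, from -0.034 to 0.39 for Fos, from -0.057 to 0.43 for Junb and from -0.27 to 0.046 for Egr1. None of these genes was called with all libraries, and the cause was not tested. No scaling moved the median of all genes by 0.1. Depth limits Ciart most, at 25 to 42 expected counts a library.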

Other observations

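The authors' deposited gene annotation marks further genes as part of the circadian rhythm. Of all tested genes 1.15% were called in edgeR's test. Of 57 tested genes with that term, 2 rose, 1 fell and 54 did not pass it, with a median log2 fold change of 0.07. Besides Dbp and Nfil3, the called gene was Slc6a4, the serotonin transporter gene, which had 9.34, 8.96 and 10.8 CPM in I/R, against 0.246, 0.15 and 0.206 CPM in sham, near the level of 3 counts. Of 48 tested genes annotated to circadian regulation of gene expression, 1 rose and none fell, with a median of 0.10. It was Nrip1, a corepressor of nuclear receptors, which had 57.2, 55.7 and 66.4 CPM in I/R, against 38.2, 37.0 and 36.0 CPM in sham (0.69 ± 0.10 on the log2 scale, with an adjusted p of 0.0097 in edgeR's test). Slc6a4 and Nrip1 were chosen after their values were seen, and in both every I/R value lay above every sham value.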
